A study of Mus musculus with 6 samples.

Results

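Matrix metalloproteinases (MMPs), the secreted ADAMTS proteases, the related ADAMTS-like proteins (ADAMTSL) and the tissue inhibitors of metalloproteinases (TIMPs) were described here in cultured osteoblasts. The group held every gene of the deposited count table whose symbol joins Mmp, Timp, Adamts or Adamtsl to a number, apart from the gelatinase gene Mmp9. It had 50 members of 55471 genes, namely 22 MMP, 19 ADAMTS, 5 ADAMTSL and 4 TIMP genes. The cells were primary osteoblasts, the bone-forming cells, taken from calvariae, the bones of the skull roof, of C57BL/6 mice aged 3 days. Per the study's methods they were freed from parietal bone with collagenase and dispase and cultured before RNA isolation. The WT libraries came from wild-type mice, and the labels do not say whether these carried floxed alleles or the Cre transgene. The TCKO libraries came from mice with the alleles Tet1fl/fl, Tet2fl/fl and Tet3fl/fl and Prx1-Cre, a recombinase driven in limb and skull mesenchyme and therefore not in osteoblasts alone. The floxed genes encode the TET dioxygenases, which oxidise methylated cytosine in DNA. Poly(A) RNA was sequenced in 3 libraries per genotype, numbered 1 to 3 in the labels, and the comparison of the genotypes asks how loss of the TET enzymes alters gene expression in these cells.

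MMPs are zinc-dependent endopeptidases that are made as inactive proenzymes and cleave collagens and other matrix proteins once the propeptide is removed. ADAMTS proteases share the catalytic fold but carry thrombospondin repeats that anchor them in the matrix, where they process procollagens and cut large proteoglycans. ADAMTS-like proteins lack the catalytic domain and bind microfibrils. TIMPs bind the active site of these enzymes, and in bone the balance between proteases and inhibitors is known for its part in matrix turnover, in growth plate invasion and in the closure and shaping of the skull.

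The libraries held 8019999 to 10177214 counts, and 3 counts, the limit that a count of 0 allows, equalled 0.295 to 0.374 CPM (counts scaled to a library of common size). This limit covers counting error only. Replicates 1 and 2 of each genotype were much closer to each other than to replicate 3. Over genes with at least 20 counts in a pair, the chi-square per degree of freedom was 1.69 between WT replicates 1 and 2 and 2.04 between TCKO replicates 1 and 2, but 16.5 to 23.3 for the pairs that included replicate 3. Mitochondrial transcripts took 2.22% and 2.47% of counts in the replicate 3 libraries and 1.11% to 1.24% in the others. TCKO replicate 3 had 4583 Xist counts and 0 Ddx3y counts, whereas the other 5 libraries had 1 to 4 and 675 to 1094. The labels do not state that replicates came from separate animals or cultures, so p-values measure the spread between these libraries, which may be technical. As a check of the labels, Tet1 was lower in the libraries labelled TCKO (log2 fold change -0.97 ± 0.16, SE, adjusted p = 0.00648 by edgeR), Tet3 was higher (0.51 ± 0.09, adjusted p = 0.00745) and Tet2 did not pass the test (-0.14 ± 0.14, adjusted p = 0.545). Gene totals do not resolve the deleted exons, and TCKO is used below for the libraries so labelled. Of 12 osteoblast markers 7 could be tested, of which 1 rose and 3 fell (5 with replicate number as a block, but 2 with the block on summed replicates 1 and 2, where none rose), and the markers of mature osteoblasts and osteocytes Bglap, Bglap2, Dmp1 and Sost had at most 5 counts in any library. The alkaline phosphatase gene Alpl had 143, 163 and 475 counts in the WT libraries against 22, 11 and 34 in the TCKO libraries, highest in replicate 3 of each genotype (log2 fold change -3.54 ± 0.62, or -2.69 without WT replicate 3). The osteopontin gene Spp1 rose instead, from 1168 CPM in WT to 7165 CPM in TCKO on average (log2 fold change 2.62 ± 0.44). It stood at 897, 845 and 1762 CPM in WT replicates 1 to 3 and at 8915, 9270 and 3311 CPM in TCKO. The Spp1 call was lost with replicates 1 and 2 summed (adjusted p = 0.123 by edgeR) and with the block on these (0.114).

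Levels were compared between genes per kilobase of exon (RPKM). In WT the inhibitors led, with Timp1 at 762 ± 211 RPKM and Timp2 at 656 ± 59.7 RPKM (mean ± SD, n = 3), and the libraries of these neighbours overlapped. Mmp2, gelatinase A, followed at 391 ± 35.8 RPKM, then Timp3 at 213 ± 80.3 RPKM and the membrane-anchored Mmp14 at 114 ± 7.09 RPKM, each apart from the next in the order in all libraries. Adamts5, Adamts1, Mmp13 and Mmp23 lay between 51.0 and 68.3 RPKM on average, with neighbours overlapping, and no other member averaged above 17.8 RPKM. In TCKO the order was Timp1 (823 ± 138 RPKM), Timp2 (439 ± 96.3 RPKM), Mmp2 (220 ± 33.6 RPKM), Mmp14 (118 ± 11.7 RPKM) and Timp3 (78.4 ± 4.30 RPKM). Timp3 and Mmp14 thus had exchanged places, and Timp3 overlapped its next neighbour Mmp13 (64.8 ± 49.3 RPKM). Adamts5 moved from place 6 to place 9 of the order, and Adamts12 from 14 to 10. Summed over the members, 0.902%, 0.905% and 0.912% of all counts fell on these genes in WT replicates 1 to 3 and 0.594%, 0.593% and 0.636% in TCKO, without overlap.

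**Figure D1:**
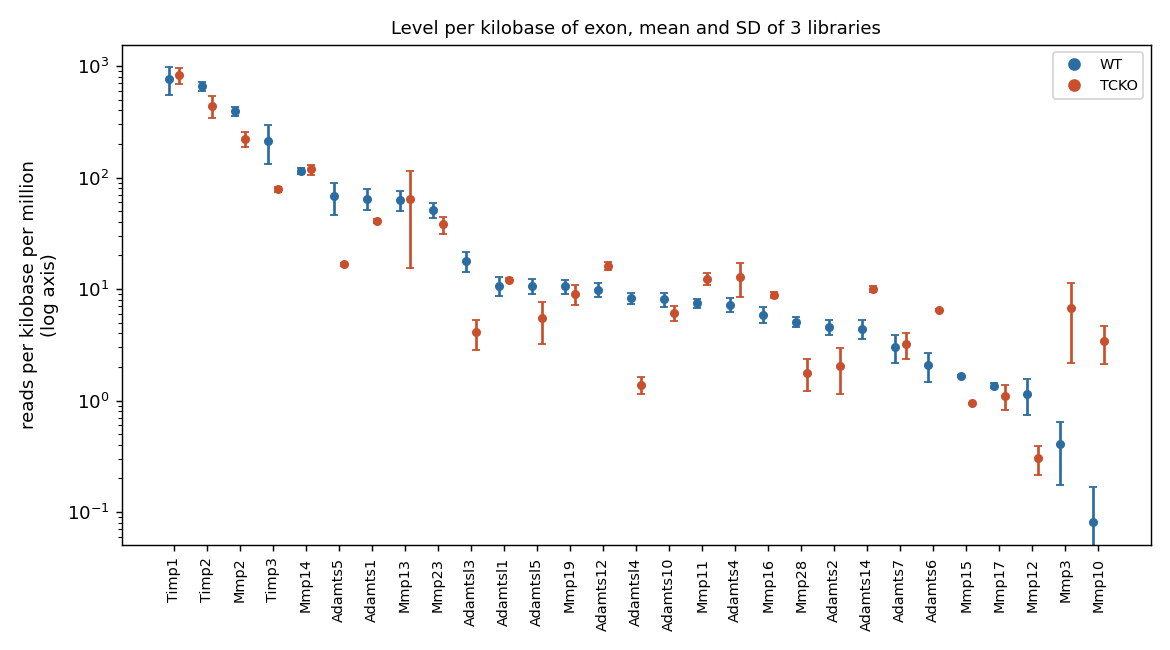
Mean level of the members that averaged at least 1 RPKM in either genotype, in RPKM on a log axis, ordered by WT level, with WT in blue, TCKO in red and SD over 3 libraries as bars (the lower WT bar of Mmp10 runs off the axis). Timp1, Timp2, Mmp2, Timp3 and Mmp14 had the highest WT levels, and the widest TCKO bar among the abundant genes is that of Mmp13.

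The genomic neighbourhood of the MMP genes that differed most is shown first. 10 members lie in a cluster on chromosome 9 (GRCm38, 7272514 to 7699585, 427.1 kb), in the order Mmp13, Mmp12, Mmp1b, Mmp3, Mmp1a, Mmp10, Mmp8, Mmp27, Mmp20 and Mmp7, and their values follow further down. RefSeq promoter windows of the same build (GRCm38.p6) were found for 36 of the 50 members, 39 windows in all, and were read over the 250 bases before the start. The windows were searched on both strands for TGANTCA, the letters bound by AP-1 factors, and for TGTGGT or its complement ACCACA, the core letters bound by RUNX factors. TGANTCA was found in 8 of the 12 windows of the chromosome 9 cluster and in 0 of the 27 windows of other members, against 6.75% of all 32851 windows. The RUNX letters were found in 6 of the members' 39 windows, against 14% of all windows. CpG dinucleotides, the sites of DNA methylation, were also scarce in the cluster. 10 of its 12 windows held 2 or fewer, compared with 3 of the 27 other windows and 29% of all windows. Such matches are a description of the letters and not of binding. The windows of the 4 cluster genes whose values are turned to most below are shown 5′ to 3′ on the + strand, with the TGANTCA and RUNX letters in capitals. Mmp12 has 2 annotated starts, and its first window holds neither motif.
Mmp13 chr9:7272264-7272513 (+): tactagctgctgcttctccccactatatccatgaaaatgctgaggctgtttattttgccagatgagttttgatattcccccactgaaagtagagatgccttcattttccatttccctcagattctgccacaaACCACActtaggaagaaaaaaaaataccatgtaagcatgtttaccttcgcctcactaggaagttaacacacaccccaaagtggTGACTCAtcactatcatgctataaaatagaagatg
Mmp12 chr9:7344147-7344396 (+): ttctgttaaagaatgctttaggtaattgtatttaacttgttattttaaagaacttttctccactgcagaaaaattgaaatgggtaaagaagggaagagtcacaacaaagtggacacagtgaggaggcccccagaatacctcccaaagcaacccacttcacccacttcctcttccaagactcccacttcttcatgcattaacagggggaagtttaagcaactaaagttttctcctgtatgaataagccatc
Mmp12 chr9:7347124-7347373 (+): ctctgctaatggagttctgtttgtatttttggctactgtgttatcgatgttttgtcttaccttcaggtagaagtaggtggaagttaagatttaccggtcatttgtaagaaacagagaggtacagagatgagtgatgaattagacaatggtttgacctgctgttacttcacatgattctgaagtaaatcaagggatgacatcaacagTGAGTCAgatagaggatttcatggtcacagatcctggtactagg
Mmp3 chr9:7445572-7445821 (+): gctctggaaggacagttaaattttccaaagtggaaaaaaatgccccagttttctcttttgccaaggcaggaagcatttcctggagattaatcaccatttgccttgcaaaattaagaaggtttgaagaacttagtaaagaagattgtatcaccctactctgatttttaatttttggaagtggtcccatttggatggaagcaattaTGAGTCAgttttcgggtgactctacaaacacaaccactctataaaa
Mmp10 chr9:7502092-7502341 (+): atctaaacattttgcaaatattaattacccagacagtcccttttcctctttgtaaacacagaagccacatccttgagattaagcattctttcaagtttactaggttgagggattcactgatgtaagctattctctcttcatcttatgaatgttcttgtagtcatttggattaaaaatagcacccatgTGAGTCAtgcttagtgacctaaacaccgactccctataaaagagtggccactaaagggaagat
The first base of TGANTCA lay 35 bases before the start in Mmp13, 44 in the second window of Mmp12, 46 in Mmp3 and 63 in Mmp10, and Mmp13 also held ACCACA 118 bases before the start. Outside the cluster, windows were found for 6 of the members that changed by more than 2-fold, and these held 18 CpG in Timp3, 15 in Mmp28, 17 in Adamtsl4, 39 in Adamtsl3, 34 in Adamts2 and 35 in Adamts14. Windows of members outside the cluster that did not pass or were not tested held from 1 in Adamts13 to 35 in Adamts3. The median was 13 over the windows of all members and 6 over all windows.

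Differences between the genotypes were tested with edgeR's quasi-likelihood test over all genes, with Benjamini-Hochberg adjustment over the 13826 genes tested. A gene is said to rise or fall where the adjusted p was below 0.05. 33 of the 50 members had enough counts for the test. Of these, 8 rose in TCKO (24.2%) and 13 fell (39.4%), while 12 did not pass. Of all genes tested, 9.07% rose and 8.63% fell. The counts of falls depended on the libraries, since leaving out any 1 of replicates 1 and 2 of either genotype gave 8 members lower and 6 or 7 higher, with 603 to 706 of all genes higher and 550 to 636 lower. With replicates 1 and 2 summed, 3 members rose and 3 fell, against 217 and 169 of all genes. With a change of more than 2-fold, 5 members rose and 7 fell, against 3.16% and 3.19% of all genes. Among the 5, Mmp10, Mmp3 and Adamts16 entered the test through the TCKO libraries where they were high. With at least 50 counts on average, 3 members rose and 6 fell by more than 2-fold, against 255 and 288 of all genes. The median log2 fold change was -0.41 over the tested members and 0.00 over all tested genes. The libraries of the genotypes did not overlap for 22 of the tested members, including all that passed the test, and 38.3% of all tested genes had no overlap. In bulk RNA a fall in a transcript can come from fewer cells of a type or from less RNA per cell, and these cannot be told apart.

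Among the MMPs 14 of 22 were tested, of which 4 rose and 4 fell (median log2 fold change -0.28). Among the ADAMTS proteases 12 of 19 were tested, with 4 higher and 4 lower (median -0.16). Of the ADAMTSL genes 4 of 5 were tested and 3 fell (median -1.55), and of the TIMPs 3 of 4 were tested and 2 fell (median -0.58). No member of these 2 families rose. With 9.07% of all tested genes rising, no rise among so few genes is near that share. Differences between the families were not tested.

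**Figure D2:**
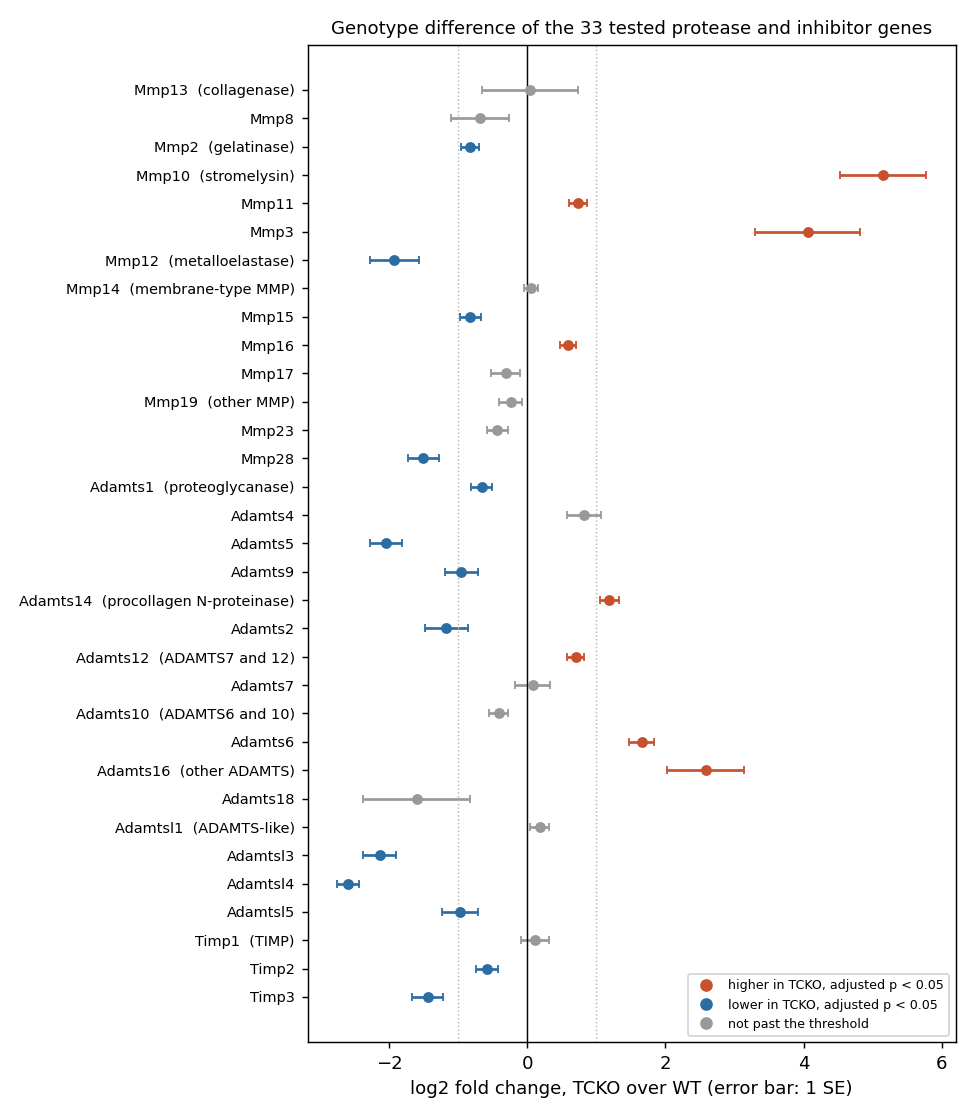
Log2 fold change of TCKO over WT for the 33 tested members, grouped by role, with 1 SE as the bar, dotted lines at a 2-fold change and colour showing the edgeR call. Mmp10 lies farthest to the right at 5.15 and Adamtsl4 farthest to the left at -2.59.

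Collagenases cut the triple helix of fibrillar collagens. Mmp13, collagenase-3 (ENSMUSG00000050578, chromosome 9, 7272514 to 7283331, + strand), is the main interstitial collagenase of mouse bone and cartilage and was the only one expressed at a substantial level. It had 1508, 1913 and 1077 counts in WT replicates 1 to 3 and 2087, 2089 and 192 in TCKO. The TCKO libraries split, with replicates 1 and 2 above every WT library and replicate 3 below them all. Its log2 fold change was 0.04 ± 0.69 (SE, adjusted p = 0.975 by edgeR). Within replicates 1 and 2 the log2 difference, computed after adding 2 CPM, was 0.41, and within replicate 3 it was -2.49. Without TCKO replicate 3 Mmp13 passed as higher (0.57, adjusted p = 0.0342 by edgeR), and without replicate 3 of both genotypes as well (0.41, adjusted p = 6.57e-11), a fit that rests on the close replicates 1 and 2 alone.

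Mmp8, the neutrophil collagenase, had 9, 14 and 17 counts in WT against 8, 11 and 5 in TCKO, and its log2 fold change of -0.68 ± 0.42 did not pass (adjusted p = 0.313 by edgeR). Beside it, none of 7 neutrophil markers had enough counts to be tested, and their summed level was 0.242 to 3.03 CPM in WT and 1.24 to 2.13 CPM in TCKO. The rodent collagenase genes Mmp1a (0, 0 and 0 counts in WT against 3, 1 and 0 in TCKO) and Mmp1b (2, 1 and 0 against 6, 5 and 2) were too scarce to test.

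Mmp2 encodes gelatinase A, which degrades denatured collagen and type IV collagen, and was the most abundant protease of the group. It fell in TCKO. Mmp2 (ENSMUSG00000031740, chromosome 8, 92827291 to 92853420, + strand) had 11610, 13735 and 9748 counts in WT replicates 1 to 3 and 7102, 6475 and 5455 in TCKO, and every TCKO library lay below every WT library. The means were 1319 ± 120.5 CPM in WT and 742 ± 113 CPM in TCKO, and the log2 fold change -0.83 ± 0.13 (SE, adjusted p = 0.00511 by edgeR). The difference was similar in both replicate sets, at -0.78 within replicates 1 and 2 and -0.95 within replicate 3. Of the summed MMP level per kilobase, Mmp2 made up 59.5% to 60.5% in WT and 42.9% to 49.8% in TCKO.

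The stromelysins Mmp3 and Mmp10 cleave proteoglycans and other non-collagen substrates and can activate procollagenases. Both rose from near background in WT, and they entered the test through the TCKO libraries where they were high. Mmp10 (ENSMUSG00000047562, chromosome 9, 7502352 to 7510240, + strand) had 0, 3 and 1 counts in WT replicates 1 to 3 and 63, 56 and 30 in TCKO. The summed counts of 149 against 4 gave a ratio of 39.2, with an exact 95% interval of 15 to 146 that covers counting error only. Its edgeR adjusted p was 0.00162, and its fitted log2 fold change of 5.15 ± 0.62 depends on the handling of counts near 0. Mmp3 (ENSMUSG00000043613, chromosome 9, 7445822 to 7455975, + strand) had 4, 5 and 10 counts in WT replicates 1 to 3 and 169, 116 and 27 in TCKO. The ratio of summed counts was 17.3 (exact 95% interval 10.9 to 29.1; 312 against 19 counts), with an edgeR adjusted p of 0.00998. TCKO replicate 3 was the lowest of its genotype for both genes and WT replicate 3 the highest of its own for Mmp3. The Mmp3 call was lost without WT replicate 1 (adjusted p = 0.0501, edgeR) and without WT replicate 2 (0.0566), while that of Mmp10 was kept with each library left out in turn.

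Mmp11, stromelysin-3, differs from the other stromelysins in being activated inside the cell by furin-type convertases. It rose. Mmp11 (ENSMUSG00000000901, chromosome 10, 75923222 to 75936496, - strand) had 181, 185 and 179 counts in WT replicates 1 to 3 and 256, 294 and 328 in TCKO, so that the lowest TCKO count was well above the highest WT count. Its log2 fold change was 0.73 ± 0.13 (adjusted p = 0.00743 by edgeR), and the log2 difference came to 0.65 within replicates 1 and 2 and 0.71 within replicate 3.

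Mmp12, macrophage metalloelastase, degrades elastin and is known from macrophages. It fell in TCKO. Mmp12 (ENSMUSG00000049723, chromosome 9, 7344381 to 7369499, + strand) had 83, 99 and 41 counts in WT replicates 1 to 3 and 19, 23 and 14 in TCKO. All TCKO libraries were below all WT libraries, and the lowest library of each genotype was replicate 3. The means were 8.30 ± 2.88 CPM in WT and 2.20 ± 0.645 CPM in TCKO (log2 fold change -1.92 ± 0.35, adjusted p = 0.00856 by edgeR). Of 8 macrophage markers, all tested, 3 fell and none rose, with a median log2 fold change of -1.14, and with replicate number as a block 7 fell, or 4 with the block on summed replicates 1 and 2. Their summed level was 401 to 717 CPM in WT and 163 to 542 CPM in TCKO, lowest in replicate 3 of each genotype. Most of this sum was Lyz2, at 512 CPM in WT and 358 CPM in TCKO on average. In WT, Adgre1 and Cd14 were highest in replicate 3, while the other markers were lowest there. The part of the macrophage transcripts in the Mmp12 difference was not tested. Mmp7, matrilysin, had 0 counts in every library.

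On chromosome 9 the tested neighbours therefore moved in different directions. Mmp3 and Mmp10 rose and Mmp12 fell, Mmp8 did not pass, and Mmp13 differed in sign between the replicate sets. TGANTCA stands in the windows shown above for Mmp3, Mmp10 and Mmp13 and for the second start of Mmp12. It also stands in windows of Mmp1a, Mmp1b, Mmp7 and Mmp20, which had at most 6 counts in any library. The part of TGANTCA in these values was not tested. Among the scarce members of the cluster, Mmp27 had 2, 1 and 3 counts in WT against 0, 1 and 1 in TCKO, and the enamel protease gene Mmp20 had 0 in every library.

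**Figure D3:**
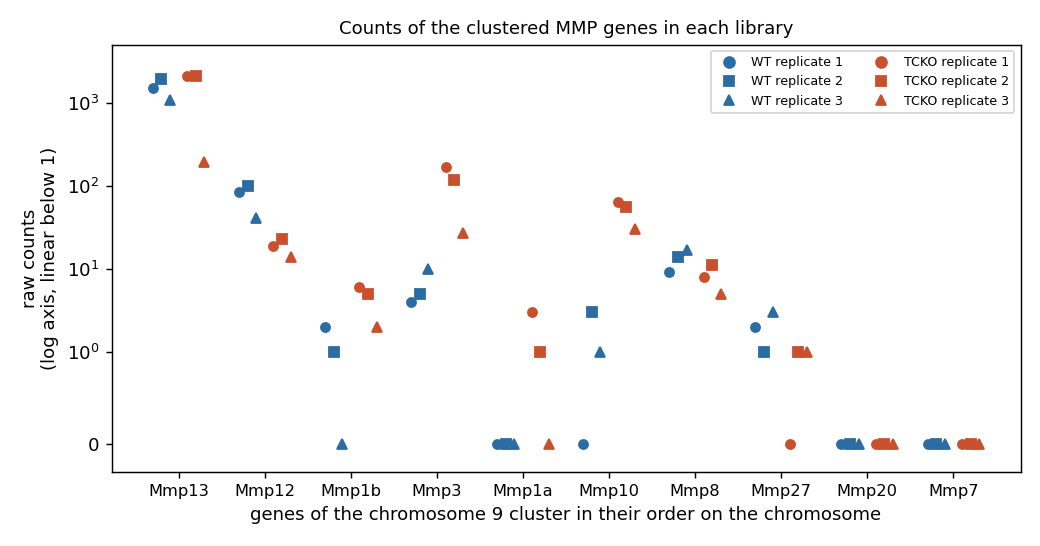
Raw counts of the 10 MMP genes of the chromosome 9 cluster in each library, in chromosomal order and on a log axis that is linear below 1, with WT in blue, TCKO in red and the marker shape giving the replicate number. Mmp3 and Mmp10 were higher in all 3 TCKO libraries, Mmp12 was lower, and Mmp13 had 192 counts in TCKO replicate 3 against 1077 to 2089 in the other 5.

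Membrane-type MMPs are tethered to the cell surface. Mmp14, which cleaves collagen around the cell and together with TIMP2 activates the MMP2 proenzyme, had 5946, 6799 and 5242 counts in WT replicates 1 to 3 and 6449, 6043 and 5564 in TCKO. The genotypes overlapped at 678 ± 42.2 CPM in WT and 704 ± 69.4 CPM in TCKO, and the log2 fold change was 0.05 ± 0.10 (adjusted p = 0.748 by edgeR). Mmp15 (ENSMUSG00000031790, chromosome 8, 95352268 to 95375080, + strand) fell, with 73, 90 and 76 counts in the WT libraries against 44, 41 and 46 in the TCKO libraries, a log2 fold change of -0.82 ± 0.15 and an edgeR adjusted p of 0.00838. Its libraries lay close together within each genotype, at 9.01 ± 0.189 CPM in WT and 5.09 ± 0.0687 CPM in TCKO. Mmp16 (ENSMUSG00000028226, chromosome 4, 17852893 to 18119145, + strand) rose, from 450, 573 and 344 counts in WT to 653, 600 and 733 in TCKO (log2 fold change 0.59 ± 0.12, adjusted p = 0.0151 by edgeR). Mmp17, which is held by a lipid anchor, did not pass (-0.31 ± 0.21, adjusted p = 0.367). Mmp24 had at most 2 counts in a library, and Mmp25 had 5, 2 and 4 counts in WT against 8, 7 and 15 in TCKO.

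Among the other MMPs, Mmp28 (epilysin; ENSMUSG00000020682, chromosome 11, 83440768 to 83463071, - strand) fell. It had 170, 209 and 142 counts in WT replicates 1 to 3 and 50, 45 and 84 in TCKO, and the highest TCKO count, in replicate 3, stayed below every WT count. The means were 19.6 ± 2.03 CPM in WT and 6.91 ± 2.18 CPM in TCKO (log2 fold change -1.50 ± 0.22, adjusted p = 0.00341 by edgeR), and the log2 difference came to -1.57 within replicates 1 and 2 and -0.75 within replicate 3. 12% of its exon sequence is shared with 1700020L24Rik, which had 128 counts over all libraries against 700 for Mmp28. Mmp23 had 1074, 1299 and 813 counts in WT against 779, 840 and 654 in TCKO, and the log2 fold change of -0.43 ± 0.15 did not pass (adjusted p = 0.0957 by edgeR), but did with replicate number as a block (0.00859) and without WT replicate 3 (0.0319), though not with the block on summed replicates 1 and 2 (0.0659). Mmp19 did not pass (-0.24 ± 0.17, adjusted p = 0.366 by edgeR), and 22.3% of its exon sequence is shared with Tmem198b on the opposite strand. Smaller shares of exon sequence are common to Adamts9 and A730049H05Rik (9.18%), Mmp11 and Chchd10 (5.58%) and Mmp12 and Mmp1b (2.17%). Whether reads were counted by strand is not stated. Mmp21 had at most 1 count in a library.

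The ADAMTS proteoglycanases cut aggrecan and versican, the large proteoglycans of cartilage and of provisional matrix. Of the 4 tested genes of this kind, Adamts1, Adamts5 and Adamts9 fell and none rose. Over all tested genes 8.63% fell and 9.07% rose, so no rise among 4 is near that share. Adamts5 (ENSMUSG00000022894, chromosome 16, 85856173 to 85901828, - strand), the aggrecanase best known from mouse cartilage loss, had 7192, 8786 and 3821 counts in WT replicates 1 to 3 and 1563, 1487 and 1568 in TCKO. WT replicate 3 had the lowest WT count and still more than 2-fold the highest TCKO count, and the TCKO libraries lay close together. The means were 737 ± 237 CPM in WT and 179.7 ± 4.62 CPM in TCKO (log2 fold change -2.04 ± 0.23, adjusted p = 0.00127 by edgeR), and the log2 difference came to -2.25 within replicates 1 and 2 and -1.39 within replicate 3. Adamts1 (ENSMUSG00000022893, chromosome 16, 85793827 to 85803113, - strand) fell, with 3281, 3725 and 2145 counts in the WT libraries against 1875, 1679 and 2024 in the TCKO libraries (log2 fold change -0.66 ± 0.15, adjusted p = 0.0213 by edgeR). The log2 difference of Adamts1 came to -0.86 within replicates 1 and 2 and -0.19 within replicate 3, and its call was lost when any of replicates 1 and 2 of either genotype was left out (edgeR adjusted p 0.0786 to 0.0871).

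Adamts4 had 317, 373 and 239 counts in WT replicates 1 to 3 and 642, 598 and 335 in TCKO. TCKO replicate 3 lay within the WT range of counts, and the log2 fold change of 0.82 ± 0.25 did not pass (adjusted p = 0.0606 by edgeR). It passed with replicate number as a block (0.00639), without TCKO replicate 3 (0.000922) and with DESeq2 (0.00951), but not with the block on summed replicates 1 and 2 (0.0666). Adamts9, a versicanase (ENSMUSG00000030022, chromosome 6, 92772699 to 92943492, - strand), fell from 119, 109 and 74 counts in WT to 54, 35 and 64 in TCKO (log2 fold change -0.95 ± 0.24, adjusted p = 0.0343 by edgeR). This call was also lost when any 1 of replicates 1 and 2 of either genotype was left out (0.0938 to 0.126). Adamts8, Adamts15 and Adamts20 had at most 10, 6 and 4 counts in a library.

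Cartilage transcripts, including the aggrecan substrate, fell in the same comparison. All 8 chondrocyte markers fell, with a median log2 fold change of -2.40, but 3 with replicates 1 and 2 summed and 6 with the block on these. Among the 8, Matn1 and Col10a1 entered the test through the WT libraries where they were high. Matn1 had 33, 19 and 23 counts in WT against 9, 7 and 1 in TCKO, and Col10a1 25, 35 and 32 against 9, 5 and 13. The Matn1 call was lost on leaving out any 1 library other than TCKO replicate 3 (edgeR adjusted p up to 0.14). Summed levels were 6416 to 8288 CPM in WT and 743 to 1018 CPM in TCKO, and aggrecan (Acan) itself fell by 2.7 on the log2 scale. The part of these transcripts in the falls of Adamts5 and other members was not tested.

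Procollagen N-proteinases remove the aminopropeptide of fibrillar procollagens, a step in collagen fibril assembly. Adamts2 and Adamts14 share this activity and changed in opposite directions. Adamts14 (ENSMUSG00000059901, chromosome 10, 61197112 to 61273438, - strand) had 183, 190 and 227 counts in WT replicates 1 to 3 and 479, 423 and 438 in TCKO, rising from 22.9 ± 4.32 CPM to 52.1 ± 2.80 CPM (log2 fold change 1.19 ± 0.14, adjusted p = 0.00129 by edgeR). The log2 difference came to 1.30 within replicates 1 and 2 and 0.79 within replicate 3. Adamts2 (ENSMUSG00000036545, chromosome 11, 50602084 to 50807573, + strand) had 393, 460 and 292 counts in WT replicates 1 to 3 and 217, 187 and 84 in TCKO, and TCKO replicate 3 was the lowest. The means were 43.0 ± 6.61 CPM in WT and 19.1 ± 8.46 CPM in TCKO (log2 fold change -1.17 ± 0.31, adjusted p = 0.0377 by edgeR). The call of Adamts2 was lost on leaving out any 1 of replicates 1 and 2 (0.0551 to 0.127). Per kilobase of exon, Adamts2 and Adamts14 stood at 4.602 ± 0.708 and 4.40 ± 0.832 RPKM in WT, and at 2.05 ± 0.906 and 10.03 ± 0.539 RPKM in TCKO (mean ± SD, n = 3). Adamts3, the remaining enzyme of this kind, had 3 to 15 counts in WT and 5 to 11 in TCKO.

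Adamts7 and Adamts12 cleave cartilage oligomeric matrix protein. Adamts12 (ENSMUSG00000047497, chromosome 15, 11064790 to 11349231, + strand) rose, with 954, 1183 and 746 counts in WT replicates 1 to 3 and 1555, 1285 and 1674 in TCKO. The means were 108 ± 15.3 CPM in WT and 175 ± 14.2 CPM in TCKO (log2 fold change 0.70 ± 0.12, adjusted p = 0.00644 by edgeR), and the log2 difference came to 0.52 within replicates 1 and 2 and 1.04 within replicate 3. Adamts7 had 181, 222 and 105 counts in WT against 148, 137 and 234 in TCKO and did not pass (0.08 ± 0.25, adjusted p = 0.856 by edgeR). Its replicate sets pointed in opposite directions, and without replicate 3 it was lower in TCKO (-0.38, adjusted p = 0.0073). Adamts7 shares 1.94% of its exon sequence with Tbc1d2b on the opposite strand.

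Adamts6 and Adamts10 act on or bind fibrillin microfibrils. Adamts6 (ENSMUSG00000046169, chromosome 13, 104287835 to 104496695, + strand) rose 3.15-fold, with 101, 148 and 176 counts in WT replicates 1 to 3 and 443, 399 and 463 in TCKO. The lowest TCKO library had more than 2-fold the highest WT count, and the means were 16.1 ± 4.70 CPM in WT and 50.7 ± 1.18 CPM in TCKO (log2 fold change 1.66 ± 0.18, adjusted p = 0.00105 by edgeR). Adamts10 did not pass (-0.41 ± 0.14, adjusted p = 0.0777 by edgeR), but did without TCKO replicate 3 (0.0203). Adamts17 and Adamts19 were at most at 8 and 1 counts in a library.

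Of the remaining ADAMTS genes, Adamts16 (ENSMUSG00000049538, chromosome 13, 70727802 to 70841811, - strand) rose from 1, 6 and 10 counts in WT to 33, 44 and 23 in TCKO and entered the test through the TCKO libraries. The ratio of summed counts was 6.20 (exact 95% interval 3.68 to 11.1; 100 against 17 counts), with an edgeR adjusted p of 0.0176 that was lost without WT replicate 2 (0.0808), TCKO replicate 1 (0.0557) or TCKO replicate 2 (0.0652). Its close relative Adamts18 had 40, 47 and 3 counts in WT replicates 1 to 3 and 12, 11 and 5 in TCKO. WT replicate 3 lay below every TCKO library, and the log2 fold change of -1.60 ± 0.77 did not pass (adjusted p = 0.196 by edgeR), but did without WT replicate 3 (0.00824) and with replicate number as a block (0.0442), though not with the block on summed replicates 1 and 2 (0.235). Adamts13, the protease of von Willebrand factor, had at most 1 count in a library.

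The ADAMTS-like genes held the steepest falls of the group. Adamtsl4 (ENSMUSG00000015850, chromosome 3, 95676201 to 95687917, - strand), whose protein binds fibrillin-1 and promotes microfibril deposition, had 287, 390 and 257 counts in WT replicates 1 to 3 and 53, 54 and 42 in TCKO. The genotypes were widely apart at 34.9 ± 3.89 CPM in WT and 5.83 ± 1.02 CPM in TCKO (log2 fold change -2.59 ± 0.16, adjusted p = 0.000124 by edgeR), and the log2 difference came to -2.21 within replicates 1 and 2 and -2.30 within replicate 3. Adamtsl3 (ENSMUSG00000070469, chromosome 7, 82335694 to 82614450, + strand) had 1271, 1544 and 879 counts in WT replicates 1 to 3 and 331, 293 and 185 in TCKO. Its means were 138 ± 27.4 CPM in WT and 31.6 ± 9.46 CPM in TCKO (log2 fold change -2.13 ± 0.24, adjusted p = 0.00126 by edgeR), and again the replicate sets were alike, at -2.0 within replicates 1 and 2 and -2.25 within replicate 3.

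Adamtsl5 (ENSMUSG00000043822, chromosome 10, 80339110 to 80348412, - strand), also a microfibril-associated protein, fell, with 391, 445 and 492 counts in the WT libraries against 158, 173 and 335 in the TCKO libraries (log2 fold change -0.97 ± 0.26, adjusted p = 0.0376 by edgeR). Replicate 3 was the highest library of each genotype. The Adamtsl5 call was lost on leaving out any 1 library other than TCKO replicate 3 (adjusted p 0.0764 to 0.126, edgeR). Adamtsl1 did not pass (0.18 ± 0.14, adjusted p = 0.422 by edgeR), and Adamtsl2 had at most 2 counts in a library. Summed over the 5 genes, the level was 49.7, 50.9 and 42.2 RPKM in WT and 22.1, 22.7 and 24.4 RPKM in TCKO.

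The TIMPs differ in reach. TIMP1 inhibits most soluble MMPs, TIMP2 also takes part in MMP2 activation at the cell surface, and TIMP3 is bound to the matrix and inhibits ADAMTS proteases as well as MMPs. Timp3 (ENSMUSG00000020044, chromosome 10, 86300372 to 86349506, + strand) fell most among the TIMPs, with 10832, 14136 and 20540 counts in WT replicates 1 to 3 and 5611, 4847 and 5995 in TCKO. The TCKO libraries lay close together and below every WT library, and WT replicate 3 had the highest count. The means were 1737 ± 654 CPM in WT and 638 ± 35.0 CPM in TCKO (log2 fold change -1.44 ± 0.23, adjusted p = 0.00555 by edgeR), and the log2 difference came to -1.13 within replicates 1 and 2 and -1.89 within replicate 3. 21.3% of Timp3 exon sequence is shared with Syn3 on the opposite strand, which had 29 counts against 61961 for Timp3 over all libraries.

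Timp2 (ENSMUSG00000017466, chromosome 11, 118301069 to 118355740, - strand) had 22061, 27140 and 18877 counts in WT replicates 1 to 3 and 13151, 11931 and 19091 in TCKO. The log2 difference came to -0.85 within replicates 1 and 2 and -0.10 within replicate 3, a log2 fold change of -0.58 ± 0.16 over all libraries (adjusted p = 0.0418 by edgeR) that was lost on leaving out any 1 of replicates 1 and 2 (0.139 to 0.15). The raw count of TCKO replicate 3 exceeded that of WT replicate 3, and only after scaling to library size did the genotypes not overlap. Timp1 had 4807, 5570 and 7361 counts in WT replicates 1 to 3 and 5704, 5383 and 7776 in TCKO. Replicate 3 was the highest library of each genotype, the genotypes overlapped, and the log2 fold change was 0.11 ± 0.20 (adjusted p = 0.743 by edgeR). Timp1 lies on the X chromosome, and TCKO replicate 3 is the library with Xist counts. Timp4 had 0, 1 and 0 counts in WT against 1, 0 and 5 in TCKO.

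The genotypes also differed in the makeup of the inhibitor pool. The summed TIMP level was 1502, 1494 and 1898 RPKM in WT and 1197, 1208 and 1615 RPKM in TCKO, with TCKO replicate 3 inside the WT range. Timp3 made up 10.7% to 16.1% of it in WT and 5.11% to 6.57% in TCKO, and Timp1 made up 41.9% to 52.9% and 60.8% to 62.4%. The share of Timp2 overlapped, at 30.95% to 46.52% in WT and 31.51% to 34.04% in TCKO, with WT replicate 3 below every TCKO library. The summed MMP level was 698, 683 and 580 RPKM in WT and 540, 556 and 364 RPKM in TCKO, and the summed ADAMTS level was 200, 194 and 129 RPKM and 118, 115 and 114 RPKM, neither overlapping. The ratio of summed TIMP to summed MMP level was 2.15, 2.19 and 3.27 in WT and 2.22, 2.17 and 4.43 in TCKO, so it overlapped between the genotypes and was highest in replicate 3 of each.

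**Figure D4:**
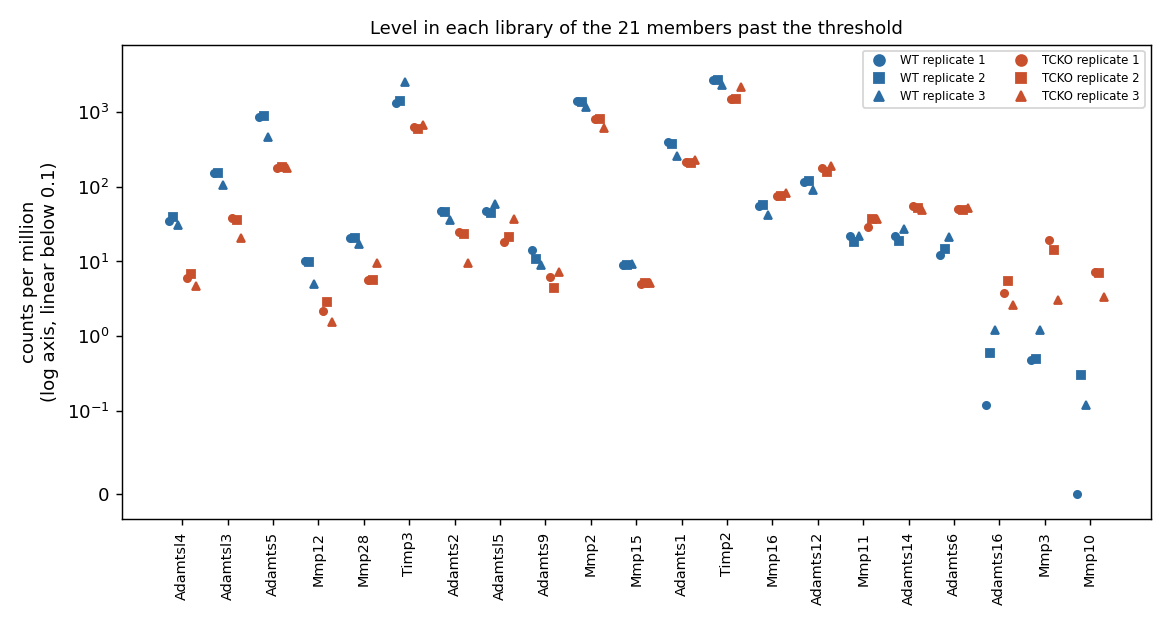
Level in each library of the 21 members that passed the edgeR test, in CPM on a log axis that is linear below 0.1, ordered by log2 fold change from the steepest fall, with WT in blue, TCKO in red and the marker shape giving the replicate number. For each gene the TCKO libraries lie on 1 side of the WT libraries, and in Timp2 the TCKO replicate 3 library comes close to WT.

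The libraries of the genotypes did not overlap for any of the 21 called members, which fixes in advance the same sign within both replicate sets. The sizes of their differences varied between the sets. Mmp3, Mmp10, Adamts6, Adamts14 and Adamts16 rose more within replicates 1 and 2, and Adamts12 and Mmp16 more within replicate 3. Adamts1, Adamts9 and Timp2 fell by 0.86, 1.01 and 0.85 within replicates 1 and 2 and by 0.19, 0.26 and 0.10 within replicate 3. Because replicates 1 and 2 were so close, the test was repeated with their counts summed, leaving 2 samples per genotype. In that fit 3 members rose and 3 fell. These were Mmp10 (adjusted p = 0.0286 by edgeR), Adamts6 (0.0359) and Adamts14 (0.0442), and Adamts5 (0.0448), Adamtsl3 (0.0376) and Adamtsl4 (0.0133). Mmp10 is in the test through the libraries where it is high, and it could not be fitted under a minimum of 50 counts on average.

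**Figure D5:**
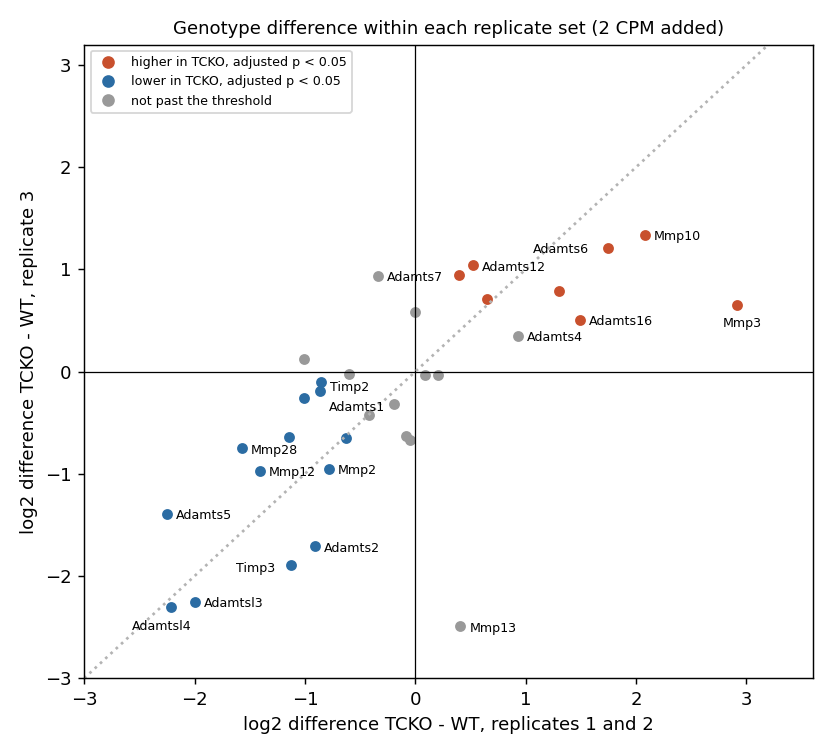
Log2 difference of TCKO and WT within replicates 1 and 2 (x axis) against that within replicate 3 (y axis) for the 33 tested members, with 2 CPM added, a dotted line of equal differences and colour showing the edgeR call. The called members lie in the lower left and upper right because their genotypes did not overlap, and Mmp13 lies at 0.41 and -2.49.

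The members were set beside other genes of the same pathways. Of 9 genes for activators of the proenzymes, such as plasminogen activators and convertases, 7 were tested, 4 rose and 1 fell. With replicate number as a block 5 rose and 1 fell, and with the block on summed replicates 3 and 0. Of all tested genes, 9.07% rose and 8.63% fell in the main fit. Plat, tissue plasminogen activator, rose from 332, 438 and 350 counts in WT to 2740, 2709 and 1245 in TCKO (log2 fold change 2.64 ± 0.31, adjusted p = 0.0014 by edgeR), and the convertase gene Pcsk5 rose by 1.42 ± 0.23 (0.00591). Plasminogen itself (Plg) had 0 counts. Of 8 genes for inhibitors other than TIMPs, 6 were tested, 1 rose (2 with replicate number as a block, 1 with the block on summed replicates) and 1 fell. Reck, a membrane-anchored MMP inhibitor, fell from 646, 718 and 415 counts to 234, 222 and 290 (log2 fold change -1.20 ± 0.17, adjusted p = 0.00304 by edgeR), and Tfpi2, a secreted protease inhibitor, rose from 14, 24 and 26 counts to 143, 167 and 128 (2.82 ± 0.25, adjusted p = 0.000443).

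Of 16 matrix substrates 14 were tested, 1 rose and 6 fell, or 9 with replicate number as a block and 5 with the block on summed replicates 1 and 2. Those that fell by more than 2-fold were Col2a1 (log2 fold change -3.13 ± 0.17), Acan (-2.70 ± 0.18), Comp (-2.86 ± 0.46) and Eln (-1.62 ± 0.22). Of 5 cofactor genes, 4 were tested, 1 rose and 1 fell (2 with the block, 1 with the block on summed replicates). The microfibril gene Thsd4 fell by 4.31 on the log2 scale and Fbln1, which binds ADAMTS1, rose by 1.84, a call lost on leaving out any 1 library other than TCKO replicate 3 (edgeR adjusted p up to 0.11). Of 18 related metalloproteases 13 were tested, 3 rose and 2 fell (2 and 2 with the block on summed replicates). Adam12 (1.46 ± 0.31) and the tolloid-like Tll1 (1.48 ± 0.22) rose by more than 2-fold, and the Adam12 call was lost on leaving out any 1 of replicates 1 and 2 (edgeR adjusted p up to 0.0744). Among 11 other matrix proteases 10 were tested, 1 rose and 2 fell (1 and 1 with the block on summed replicates). The cathepsin gene Ctsk fell by 2.39 and Fap by 1.30 on the log2 scale, the latter call lost without WT replicate 2 (edgeR adjusted p = 0.0528), and Dpp4, which entered the test through the TCKO libraries, had 4, 1 and 1 counts in WT against 17, 13 and 26 in TCKO (adjusted p = 0.00744 by edgeR).

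Of 5 genes for clearance and uptake of these enzymes or their products, 1 fell and none rose, or 3 fell with the block and 0 with the block on summed replicates. Of 12 transcription factors known to induce MMP genes all were tested, 1 rose (2 with the block, 0 with the block on summed replicates) and 2 fell (1 with the latter), and Runx3 fell by 1.85 on the log2 scale. Markers of the remaining cell types were counted as well. The 6 osteoclast markers summed to 4.49 to 4.72 CPM in WT and 2.69 to 5.84 CPM in TCKO, the 6 endothelial markers to 1.94 to 2.66 CPM and 1.03 to 2.61 CPM, and the 6 skeletal muscle markers to 9.38 to 29.7 CPM and 30.6 to 84.9 CPM, of which Acta1 rose. Their part in the results was not tested.

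17 members could not be tested, with at most 15 counts in any library. Mmp7 and Mmp20 had no counts at all, and 11 of the 17 had 5 or fewer in every library. Expression below the limits given above was not detectable at this depth.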

How the data were processed

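RNA was sequenced from poly(A) libraries of 3 WT and 3 TCKO osteoblast samples, grouped by the sample titles. Per the study's methods the authors aligned reads with STAR 2.7.0e to GRCm38 (Ensembl release 99), and the submitters' processing notes also name featureCounts 2.0.0. The deposited values are raw counts with summed exon lengths, and the use of strand in counting is not given in the sources used here. Symbols were matched by gene identifier for 55144 of 55471 genes, and start and end positions equalled those of GENCODE M21 for 99.5%. No column was left unassigned.

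Counts were tested over all 6 libraries with edgeR 4.0.16 in R 4.3.3 (TMM scaling, filterByExpr at default settings, quasi-likelihood F test, no covariates), which kept 13826 genes with 99.7% to 99.8% of the counts. SE is the absolute log2 fold change divided by the square root of F. CPM and RPKM used TMM-scaled library sizes and the deposited exon length. The scripts were tested on simulated counts. Differences within replicate sets are log2 ratios of mean CPM after adding 2 CPM, without a test. Alternatives were other scalings, filters, DESeq2 1.42.0, a robust fit, a replicate block, a batch term, summed replicates and left-out libraries.

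The replicate block paired the samples by the numbers in the labels, which do not state what a number shares. Deviations from the genotype means correlated between same-numbered libraries at 0.204, 0.214 and 0.347 for replicates 1, 2 and 3. WT replicate 2 correlated with TCKO replicate 1 at 0.225, and WT replicate 1 with TCKO replicate 2 at 0.188. Replicate 3 correlated with replicates 1 and 2 of the other genotype at -0.249 to -0.282. These values set replicate 3 apart but do not show how replicates 1 and 2 pair. All tested members were named, with counts per library for those past the threshold, for Mmp13, Mmp2, Mmp14 and Timp3 and for the other TIMPs, and members that were not tested by their counts. Genes of other lists were named at adjusted p below 0.05 and over 2-fold, up to 4 per list. The members and lists were chosen with earlier results of these data known.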

Additional observations from a re-analysis of the deposited data

How the results depend on the processing

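Other scalings (DESeq2 size factors, upper quartile), DESeq2, the looser filter and the robust fit left the counts of members within 1.5 times of 8 higher and 13 lower, and levels per kilobase moved by less than the spread between replicates with unscaled library sizes. With at least 50 counts on average, 3 members rose by more than 2-fold instead of 5, as fewer were tested. Summing replicates 1 and 2, which leaves fewer samples, gave 3 members higher and 3 lower, 3 and 3 of them past 2-fold, with 217 and 169 of all genes. With a replicate block on the summed counts, 5 members rose and 9 fell, 3 and 7 of them by more than 2-fold, with 584 higher and 566 lower of all genes. The replicate block on the separate libraries gave 9 and 15 members, with 1664 and 1585 of all genes. This block added Adamts4, Mmp23 and Adamts18 and changed no other member's call, and these 3 did not pass with the block on summed replicates. Leaving out 1 library gave 6 to 10 members higher and 8 to 14 lower, 3 to 6 and 6 to 9 past 2-fold, and 603 to 1613 and 550 to 1509 of all genes. Without replicate 3 of both genotypes, which leaves the close replicates 1 and 2, 11 members rose and 17 fell, with 3121 and 3116 of all genes, and a batch term for replicate 3 gave 9 and 17 members, with 2190 and 2082 of all genes, adding Adamts10 and Mmp19 to those of the block.

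Among the members that did not pass, the sign changed as follows, and the cause was not tested. Mmp13 (log2 fold change 0.04) was at -0.42 with the block, -0.23 with summed replicates, -0.97 with both and -0.39 with the batch term, and ranged from -0.37 without TCKO replicate 2 to 0.57 without TCKO replicate 3, also falling below 0 without WT replicate 3 (-0.11) and TCKO replicate 1 (-0.26). With libraries left out, Adamts7 (0.08) ranged from -0.38 without replicate 3 to 0.21 without WT replicate 2, with -0.13 without WT replicate 3 and -0.16 without TCKO replicate 3, and was at 0.29 with summed replicates and 0.27 with the block on these. Adamtsl1 (0.18) ranged from -0.0041 without replicate 3 to 0.29 without WT replicate 2. Timp1 (0.11) ranged from -0.03 without TCKO replicate 3 to 0.36 without WT replicate 3, with -0.01 without WT replicate 2. No called member changed sign in any alternative, which says little because their genotypes did not overlap in any library. Members below about 15 counts are limited by depth.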
